A study of Mus with 15 samples.

Results

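The 10 genes described here are immediate early genes known to respond to the ERK cascade, each followed by 1 Ensembl transcript in the abdominal aorta. They were chosen by name, with no value in the rule but with earlier results of these data known, and all 10 transcripts were found in the files of all 15 mice, among 108027 Ensembl transcripts that the files have in common. By role they are the AP-1 and ATF family members Fos (ENSMUST00000021674), Fosb (ENSMUST00000003640), Jun (ENSMUST00000107094), Junb (ENSMUST00000064922) and Atf3 (ENSMUST00000027941), the transcription factors Egr1 (ENSMUST00000064795) and Nr4a1 (ENSMUST00000023779), and the feedback and stress genes Dusp1 (ENSMUST00000025025), Zfp36 (ENSMUST00000051241) and Ier3 (ENSMUST00000003635).

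AngII binds the AT1 receptor on vascular smooth muscle, raises intracellular Ca2+ and activates the kinases MEK and ERK. Active ERK phosphorylates ternary complex factors such as Elk1, which act with SRF on the promoters of immediate early genes, so that these transcripts can appear without new protein synthesis and are usually short-lived. Their products include the subunits of AP-1, which bind DNA in pairs, and proteins that shut the response down again, such as the MAP kinase phosphatase Dusp1 and the RNA-binding protein Zfp36.

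RNA-seq covered the abdominal aorta of 15 male wild-type C57BL/6 mice after 14 days of treatment, 5 per group and 1 library per mouse. Control mice were infused with saline, AngII mice received AngII from an osmotic pump at 500 ng/kg/min, and AngII+QDG mice received the same infusion together with Qingda granule, a herbal formula, at 1.145 g/kg/day. The free-text descriptions of single AngII mice give doses of 500, 501, 502, 503 and 504 ng/kg/min, while the treatment field gives 500 for each. The study asked whether QDG changes what AngII does to the aorta and looked in particular at Ca2+ and ERK signaling, so the transcripts that ERK activity is known to raise bear on that question at the level of RNA, after 14 days of infusion.

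Values are FPKM, fragments divided by transcript length and by the mapped fragments of the library, which allow levels of different transcripts to be compared per length. The absolute depth of the libraries is unknown. Relative depth, estimated from transcripts with few fragments, differed at most 1.12-fold between mice, and between 19759 and 22296 shared transcripts reached an FPKM of 1 per mouse. The files of Control and AngII mice list 126719 transcripts and those of AngII+QDG mice a different set of 125443, so the set and the QDG treatment cannot be told apart. The 75th percentile of FPKM above 0 was between 1.36 and 1.53 in AngII+QDG mice and between 1.16 and 1.43 in the others. The files name transcripts and not genes, and gene lists, among them markers of smooth muscle and of other cell types, were not analysed here, so the tissue label was not checked against markers.

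Each level is that of 1 transcript, and other transcripts of the same gene were not added. These levels spanned more than an order of magnitude over the 10 genes. By the median FPKM over 15 mice the order was Junb at 35.3, Jun at 30.3, Zfp36 at 23.0, Dusp1 at 15.4, Nr4a1 at 13.9, Ier3 at 13.8, Egr1 at 6.67, Atf3 at 6.19, Fos at 2.94 and Fosb at 0.953. Every pair of neighbours in this order had overlapping ranges. Egr1 was above Atf3 in 7 of 15 mice and Nr4a1 above Ier3 in 8 of 15, so these neighbours cannot be ordered mouse by mouse, while Atf3 was above Fos in 14 of 15 mice and Fos above Fosb in all 15. In mean FPKM, Fosb stood at the 80.5th percentile of shared transcripts detected in these mice and Junb at the 98.5th.

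The genes differed widely in their spread between mice. The coefficient of variation over 15 mice was 108% for Fosb, 81.5% for Fos, 65.1% for Atf3 and 49.5% for Dusp1, but 19.8% for Jun and 21.0% for Zfp36. The highest mouse was 14.3 times the lowest for Fosb and 10.1 times for Fos, against 2.17 times for Jun. Among the AP-1 and ATF transcripts, the more abundant Jun and Junb (32.0%) were the steadier ones. The spread of Fos and Fosb rested largely on AngII mouse 3988. Over the other 14 mice the coefficients of variation were 50.5% for Dusp1, 48.7% for Fosb, 47.02% for Fos and 45.9% for Atf3, and the highest mouse was 6.19, 4.04, 4.503 and 4.86 times the lowest.

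**Figure D1:**
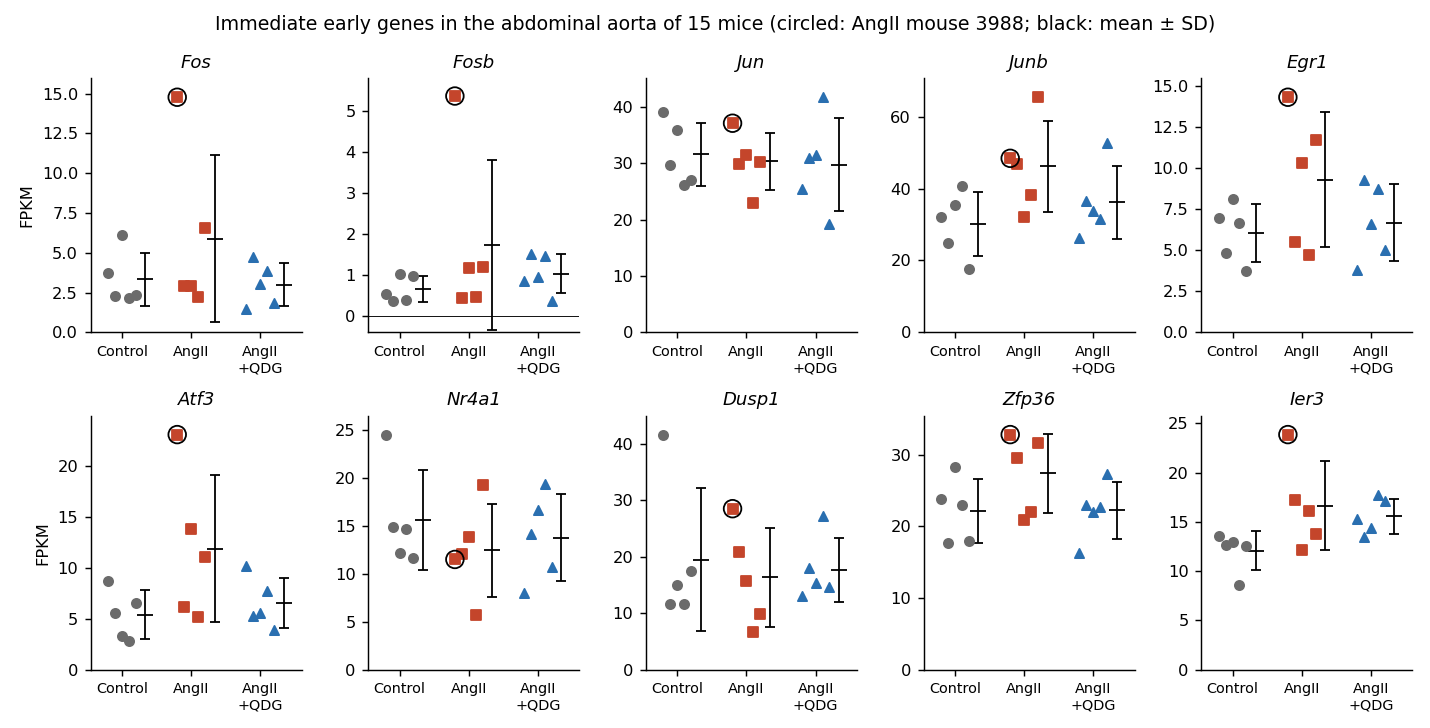
FPKM of each gene in each mouse, with Control mice as grey circles, AngII mice as red squares and AngII+QDG mice as blue triangles, 5 per group in the order of the text. Black bars give the mean ± SD, and the circled square is AngII mouse 3988, which was the highest of the 15 mice for 6 of the 10 genes. The lower end of the SD bar of Fosb in AngII mice lies below 0 because 1 mouse at 5.35 sets that SD.

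Values of single mice are given below in a fixed order, which is 3996, 4000, 4086, 3971 and 3994 for Control, 3988, 3989, 3986, 3987 and 4048 for AngII, and 3981, 3982, 3983, 3984 and 3985 for AngII+QDG. Differences between groups were fitted with limma on log2(FPKM + 1), keeping transcripts that reached an FPKM of 1 in 5 or more of the 10 mice, with Benjamini-Hochberg adjustment over all transcripts tested, and exact permutation p-values are 2-sided and unadjusted over 30 tests. With 5 mice against 5 the smallest exact p is 0.00794. On this scale the pseudocount makes the fold change of genes with a low FPKM smaller than it is.

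AngII mice had higher mean levels of Junb, Atf3, Egr1, Zfp36, Ier3 and Fos than Control mice, and about equal or lower means of Jun, Nr4a1 and Dusp1. None of the 9 genes tested passed an adjusted p of 0.05, beside 0.0095% of all 21054 transcripts tested, which is 2 transcripts. At a fold change of 2 with an unadjusted p below 0.05, thresholds the study also used for differentially expressed transcripts, though with another test, 0 of 9 genes were called beside 1.16% of all transcripts. At an unadjusted p below 0.05 alone, 2 of 9 were called, Junb and Atf3, beside 4.57% of all transcripts. In 0 of 9 genes did the 5 AngII values lie wholly outside the 5 Control values, beside 0.679% of all transcripts. In bulk tissue, fewer cells of a type and less RNA per cell cannot be told apart.

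Fos, the AP-1 subunit that pairs with Jun proteins (gene at chr12:85473890-85477274 in GRCm38.p6), had an FPKM of 3.70, 2.304, 6.12, 2.18 and 2.35 in Control mice and of 14.8, 2.92, 2.94, 2.23 and 6.59 in AngII mice. Mice 3988 and 4048 lay above all Control mice and the other 3 AngII mice within the Control range. The means were 3.33 ± 1.68 and 5.89 ± 5.25 (SD, n = 5 each), and the difference was 0.47 ± 0.44 (SE) on the log2 scale with a 95% interval from -0.50 to 1.43 (adjusted p = 0.994). Without mouse 3988 the AngII mean was 3.67 ± 1.97 (SD, n = 4) and the difference 0.10. Fosb, a related subunit (chr7:19302696-19310118), was at 0.537, 0.375, 1.02, 0.387 and 0.971 in Control mice and at 5.35, 0.453, 1.18, 0.461 and 1.21 in AngII mice. It reached an FPKM of 1 in only 4 of these 10 mice and was not tested in this comparison, and the exact permutation test gave p = 0.198. The 4 AngII mice other than 3988 had a mean of 0.824 ± 0.424, against 0.657 ± 0.314 in Control mice.

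Junb, an AP-1 subunit that can restrain the activity of Jun (chr8:84976909-84978748), was at 32.1, 25.0, 35.3, 40.7 and 17.7 in Control mice and at 48.4, 46.8, 32.0, 38.2 and 65.4 in AngII mice. AngII mice 3988, 3989 and 4048 were above all Control mice, and the groups overlapped between 32.0 and 40.7. The means were 30.2 ± 9.01 and 46.2 ± 12.6, a difference of 0.61 ± 0.25 (SE) on the log2 scale or 1.53-fold, with a limma p of 0.0323 and an adjusted p of 0.994 (exact permutation p = 0.0556). Its AngII mean did not rest on mouse 3988, since the other 4 AngII mice averaged 45.6 ± 14.5. Without mouse 3988 the difference was 0.58, and its unadjusted limma p was no longer below 0.05. The same held for that p without Control mouse 4000 or 3994, or without AngII mouse 3989 or 4048. Jun itself (chr4:95049036-95052222) ranged from 26.2 to 39.1 in Control mice and from 23.0 to 37.1 in AngII mice. Its difference was -0.05 ± 0.16 (SE), with a 95% interval from -0.40 to 0.29, so a change of 2-fold lies outside the interval.

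Atf3, a stress-induced factor of the ATF/CREB family (chr1:191170296-191183333), was at 8.72, 5.56, 3.31, 2.84 and 6.54 in Control mice and at 23.1, 6.19, 13.8, 5.15 and 11.1 in AngII mice. Mice 3988, 3986 and 4048 exceeded all Control mice, and the other pair lay within the Control range. The means were 5.39 ± 2.41 and 11.9 ± 7.20, and the difference of 0.92 ± 0.40 (SE), or 1.89-fold, was the largest of the 9 genes tested (limma p = 0.0428, adjusted p = 0.994, exact permutation p = 0.0714). Its 95% interval ran from 0.04 to 1.797. Without mouse 3988 the AngII mean was 9.07 ± 4.10. The difference was then 0.65, and its unadjusted limma p was no longer below 0.05. The same held for that p without Control mouse 4000, 4086 or 3971, or without AngII mouse 3986 or 4048.

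Egr1, a zinc finger factor that is a classical ERK-responsive transcript, was at 6.99, 4.83, 8.13, 6.67 and 3.73 in Control mice and at 14.3, 5.50, 10.3, 4.70 and 11.7 in AngII mice. The same 3 mice as for Atf3 were above all Control mice. Means were 6.07 ± 1.77 and 9.30 ± 4.11, with a difference of 0.48 ± 0.30 (SE) and a 95% interval from -0.20 to 1.16 (adjusted p = 0.994). Without mouse 3988 the difference of Egr1 was 0.31, and without AngII mouse 3987 it was 0.67. Nr4a1, an orphan nuclear receptor (chr15:101253902-101274795), went the other way in its mean, from 15.6 ± 5.20 to 12.5 ± 4.87, but the AngII range of 5.72 to 19.3 overlapped the Control range of 11.7 to 24.6. Its difference was -0.34 ± 0.29 (SE, adjusted p = 0.994), and it was -0.11 without AngII mouse 3987, the lowest of its group, -0.17 without Control mouse 3996, the highest of its group, and -0.51 without AngII mouse 4048.

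Among the feedback genes, Dusp1 (chr17:26505591-26508472), whose product dephosphorylates MAP kinases, was at 41.7, 11.7, 15.1, 11.6 and 17.5 in Control mice and at 28.5, 20.8, 15.7, 6.73 and 9.95 in AngII mice. Control mouse 3996 was the highest of all 15 mice, and AngII mouse 3987 the lowest. The difference was -0.23 ± 0.43 (SE) with a 95% interval from -1.18 to 0.71, and it was 0.07 without mouse 3996. Zfp36, tristetraprolin, which speeds the decay of AU-rich mRNAs (chr7:28376784-28379228), was at 23.8, 17.7, 28.3, 23.0 and 18.0 in Control mice and at 32.8, 29.6, 20.9, 22.1 and 31.7 in AngII mice. AngII mice 3988, 3989 and 4048, which were also the highest for Junb, lay above all Control mice, and the difference was 0.29 ± 0.18 (SE, adjusted p = 0.994).

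Ier3, a stress-inducible survival gene (chr17:35821713-35822911), was at 13.5, 12.7, 13.001, 8.63 and 12.5 in Control mice and at 23.9, 17.3, 12.1, 16.1 and 13.8 in AngII mice. All AngII mice but 3986 were above every Control mouse, the most for any of the 10 genes in this comparison. The difference of 0.41 ± 0.19 (SE) had a 95% interval from -0.01 to 0.83 (limma p = 0.0545, adjusted p = 0.994, exact permutation p = 0.0635).

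The 9 genes tested had a median difference of 0.41 on the log2 scale, beside 0.02 over all transcripts, and 6 of 9 had a higher mean in AngII mice, beside 54.1% of all transcripts. Without mouse 3988 the median over the genes was 0.22, and 0 of them had an unadjusted p below 0.05. The count of 2 also fell to 0 without Control mouse 4000. It fell to 1 without Control mouse 4086 or 3971 (Junb), without Control mouse 3994 or AngII mouse 3989 (Atf3), and without AngII mouse 4048 (Ier3). Without AngII mouse 3986 the 2 genes were Junb and Ier3, and without AngII mouse 3987 there were 3, Atf3, Egr1 and Junb. The 95% intervals of 4 genes, Jun, Nr4a1, Zfp36 and Ier3, lay within a 2-fold change in either direction, and those of the other 5 tested did not. With a pseudocount of 0.1, which shrinks low values less, 3 of 9 did, without Nr4a1.

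With QDG added to AngII, 8 of 10 genes had a lower mean on the log2 scale than with AngII alone, and Nr4a1 and Dusp1 a higher one, while 49.4% of all transcripts had a higher one. Without mouse 3988, 5 of 9 genes had a lower mean and 4 a higher one, and without AngII mouse 3987 all 10 had a lower one. Of the 10 genes, 0 passed an adjusted p of 0.05, beside 1.73% of all 21081 transcripts. At a fold change of 2 with an unadjusted p below 0.05, 0 of 10 were called beside 3.53% of all transcripts, and at an unadjusted p below 0.05 alone 0 of 10 beside 7.86%. In 0 of 10 genes did the AngII+QDG values lie wholly outside the AngII values, beside 2.86% of all transcripts. The AngII mice, 3988 included, are the same as in the comparison with Control mice, so a high AngII mouse enters both comparisons with opposite sign.

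Fos was at 1.46, 4.71, 3.07, 3.87 and 1.84 in AngII+QDG mice, a mean of 2.99 ± 1.36. All 5 were below AngII mice 3988 and 4048, and 3 of them were above the other 3 AngII mice. The difference from AngII was -0.58 ± 0.44 (SE) with a 95% interval from -1.56 to 0.39 (adjusted p = 0.922), and -0.22 without mouse 3988. Fosb was at 0.864, 1.51, 0.953, 1.47 and 0.378, which is below mouse 3988 in all 5 mice and above the other 4 AngII mice in 2. It passed the filter here, with a difference of -0.21 ± 0.38 (SE, adjusted p = 0.996). Where Fosb passed the filter, its difference ran from -0.38 without AngII mouse 3989 to -0.079 without AngII+QDG mouse 3985. It did not pass when AngII mouse 3988, 3986 or 4048 or AngII+QDG mouse 3982 or 3984 was left out.

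Atf3 was at 10.2, 5.32, 5.53, 7.70 and 3.95 in AngII+QDG mice. Its mean was 6.53 ± 2.44 against 11.9 ± 7.20 with AngII alone, and the difference was -0.65 ± 0.38 (SE) with a 95% interval from -1.49 to 0.18 (limma p = 0.111, adjusted p = 0.805, exact permutation p = 0.143). Of the 5 AngII+QDG values, 4 lay within the AngII range and 1 below it, and without mouse 3988 the difference was -0.38. Egr1 was at 3.79, 9.25, 6.60, 8.71 and 4.99, within or below the AngII range of 4.70 to 14.3, with a difference of -0.38 ± 0.32 (SE, adjusted p = 0.950). It ran from -0.57 to -0.21 as single mice were left out, the latter without mouse 3988.

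Junb was at 26.1, 36.7, 33.7, 31.4 and 52.7 in AngII+QDG mice, where mice 3981 and 3984 were below all AngII mice and mouse 3985 was above 4 of them. Its difference was -0.34 ± 0.22 (SE, adjusted p = 0.869), and -0.21 without AngII mouse 4048. Zfp36 followed with 16.2, 23.0, 22.1, 22.7 and 27.3, a mean of 22.3 ± 3.94 against 27.4 ± 5.56, and a difference of -0.28 ± 0.18 (SE, adjusted p = 0.852), which was -0.18 without AngII+QDG mouse 3981. When each mouse was scaled by its 75th percentile, Junb and Zfp36 had unadjusted p-values below 0.05, while the smallest adjusted p among the 10 genes was 0.351. That scaling moved the median of all transcripts from -0.00 to -0.12, and the share of higher transcripts among those called at a 2-fold change with an unadjusted p below 0.05 from 57.4% to 43.4%.

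For the remaining 4 genes, Jun and Ier3 had differences near 0 and Nr4a1 and Dusp1 had higher means in AngII+QDG mice. Jun ranged from 19.3 to 41.7 with QDG and its difference was -0.05 (95% interval from -0.50 to 0.39). Ier3 was between 13.5 and 17.7 in AngII+QDG mice, wholly within the AngII range, with a difference of -0.06 (95% interval from -0.45 to 0.33). Nr4a1 and Dusp1 had differences of 0.16 and 0.22, with upper limits of 0.84 and 1.00. Without mouse 3988 the difference of Dusp1 was 0.45, and the directions of Jun and Ier3 turned, to 0.02 and 0.07. The 95% intervals of 5 genes, Jun, Junb, Nr4a1, Zfp36 and Ier3, lay within a 2-fold change in either direction. The median difference over the 10 genes was -0.25, beside -0.00 over all transcripts, and without mouse 3988 it was -0.21 over the 9 genes that still passed the filter.

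AngII+QDG mice were also compared with Control mice. The median difference over the 9 genes tested was 0.01, beside 0.02 over all transcripts (-0.10 beside -0.07 with scaling by the 75th percentile), with 5 genes higher and 4 lower in mean (between 3 and 7 higher as single mice were left out), and on the log2(FPKM + 1) scale the 95% intervals of all 9 lay within a 2-fold change in either direction. With a pseudocount of 0.1 those of 7 did, while the interval of Fos reached down to -1.03 and that of Atf3 up to 1.10, so a 2-fold change lies inside them. With a pseudocount of 1, the interval of Atf3 also held a 2-fold change with 3 groups in 1 fit (upper limit 1.05). The same held when Control mouse 3996, 4000 or 3994 or AngII+QDG mouse 3982, 3983 or 3985 was left out (up to 1.10). An adjusted p below 0.05 was reached by 0 of 9 genes beside 1.81% of all 21250 transcripts, and a fold change of 2 with an unadjusted p below 0.05 by 0 of 9 beside 3.64%. The groups did not overlap in 0 of 9 genes, beside 3.24% of all transcripts. At an unadjusted p below 0.05 there was 1 gene of 9, Ier3, beside 8.98% of all transcripts. Fosb did not pass the filter here, with means of 0.657 ± 0.314 in Control and 1.04 ± 0.470 in AngII+QDG mice (exact permutation p = 0.230).

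Ier3 was at 15.3, 13.5, 14.4, 17.7 and 17.1 in AngII+QDG mice, 4 of which were above all Control mice. Its means were 12.1 ± 1.97 in Control and 15.6 ± 1.77 in AngII+QDG mice, and the difference was 0.35 ± 0.14 (SE) or 1.27-fold, with a limma p of 0.0333, an adjusted p of 0.470 and an exact permutation p of 0.0159. The unadjusted p rose above 0.05 without Control mouse 3971, which held the lowest value of the group, or without AngII+QDG mice 3981, 3984 or 3985. Ier3 was thus higher in mean than in Control mice with AngII alone and with AngII+QDG, by 0.41 and 0.35 on the log2 scale, 2 comparisons that share the Control mice. Atf3, Junb and Egr1 had the 3 largest differences from Control with AngII alone among the 9 genes tested, 0.92, 0.61 and 0.48. With AngII+QDG their differences from Control were 0.26, 0.27 and 0.10. Because these genes were picked by that ranking, a smaller second difference cannot be told apart from the picking. Without mouse 3988 the differences with AngII alone were 0.65, 0.58 and 0.31. Leaving out single mice moved the differences with AngII+QDG from 0.10 to 0.44 for Atf3, lowest without Control mouse 3971. They moved from 0.098 to 0.39 for Junb and from -0.037 to 0.25 for Egr1, both lowest without Control mouse 3994.

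**Figure D2:**
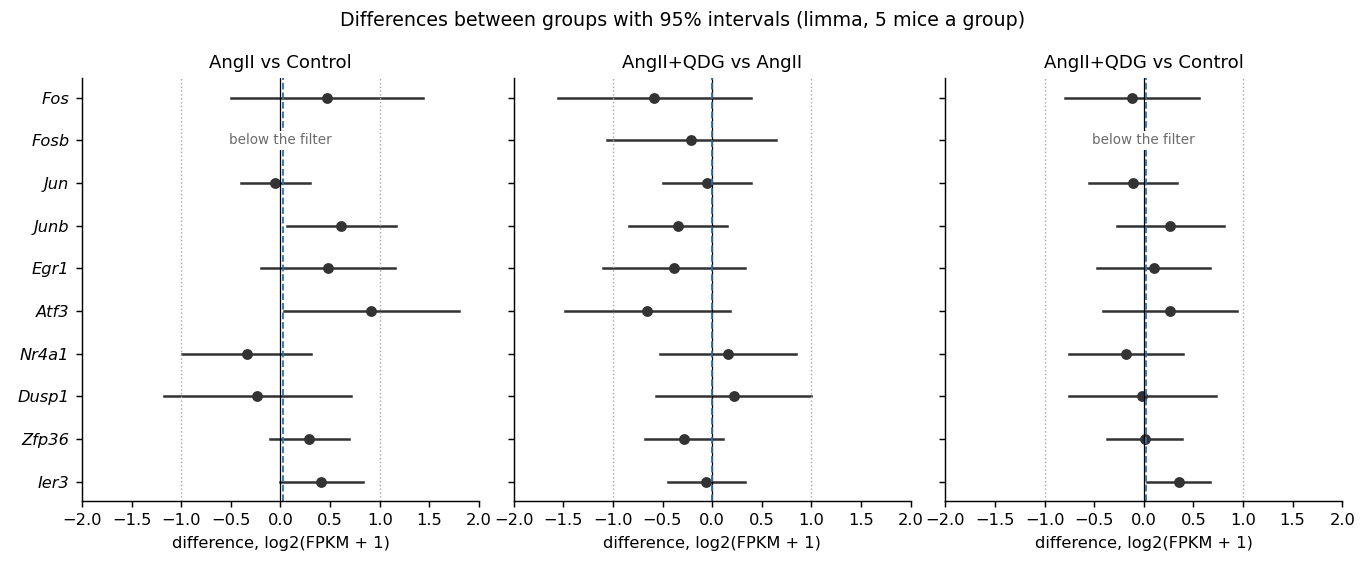
Differences on the log2(FPKM + 1) scale for each gene in the 3 comparisons, with points for the limma estimate and lines for its 95% interval, from 5 mice per group. Grey dotted lines mark a 2-fold change in either direction and the blue dashed line the median of all transcripts tested. In AngII vs Control the intervals of Junb and Atf3 lie above 0, in AngII+QDG vs AngII all 10 cross 0, and in AngII+QDG vs Control only that of Ier3 lies above 0, before any adjustment for the number of transcripts.

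The spread behind these tests differed between the genes, and in each comparison 6 of them (of 9, 10 and 9 tested) had a residual SD above the median of all transcripts. The median residual SD of the genes tested in AngII vs Control was 0.50 (log2), beside 0.38 over all transcripts, 0.54 beside 0.38 in AngII+QDG vs AngII, and 0.43 beside 0.39 in AngII+QDG vs Control. In AngII vs Control, Fos and Dusp1 had residual SDs at the 83.0th and 82.6th percentile of all transcripts, while Jun, Zfp36 and Ier3 were at the 24.2nd, 32.9th and 36.3rd.

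In some mice several of the genes were high or low together. The mean of the 10 genes on the log2(FPKM + 1) scale reached 4.43 in mouse 3988 of the AngII group, while the other 14 mice lay from 3.16 to 3.91. Mouse 3988 was the highest of its group for 8 of 10 genes, all but Junb and Nr4a1. Its FPKM was 6.49 times the mean of the other 4 AngII mice for Fosb, 4.03 times for Fos, 2.54 times for Atf3 and 2.14 times for Dusp1, but 1.06 times for Junb and 0.904 times for Nr4a1. Its relative depth of 1.04 was the highest of the 15 mice, shared with an AngII+QDG mouse, and its 75th percentile of FPKM above 0 was 1.22, within the range of the other AngII mice, 1.16 to 1.43. Their part in its levels was not tested.

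The AngII group held both ends of the scale, with mouse 3988 the highest and mouse 3987, at 3.16, the lowest of the 15. By group, the mean of the 10 genes was 3.44 ± 0.247 in Control, 3.75 ± 0.467 in AngII and 3.53 ± 0.237 in AngII+QDG mice (SD, n = 5 each). The AngII mice exceeded Control mice by 0.30 in this mean, and by 0.13 without mouse 3988. AngII+QDG mice were lower than AngII mice by a difference of -0.22, and of -0.05 without that mouse. Control mouse 3996, at rank 4 of 15 with 3.81, was high for Dusp1, Nr4a1 and Jun but not for Fos or Fosb. AngII+QDG mouse 3984, at rank 3, was the highest of its group for Jun, Dusp1, Nr4a1 and Ier3, and the highest of all 15 mice only for Jun.

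**Figure D3:**
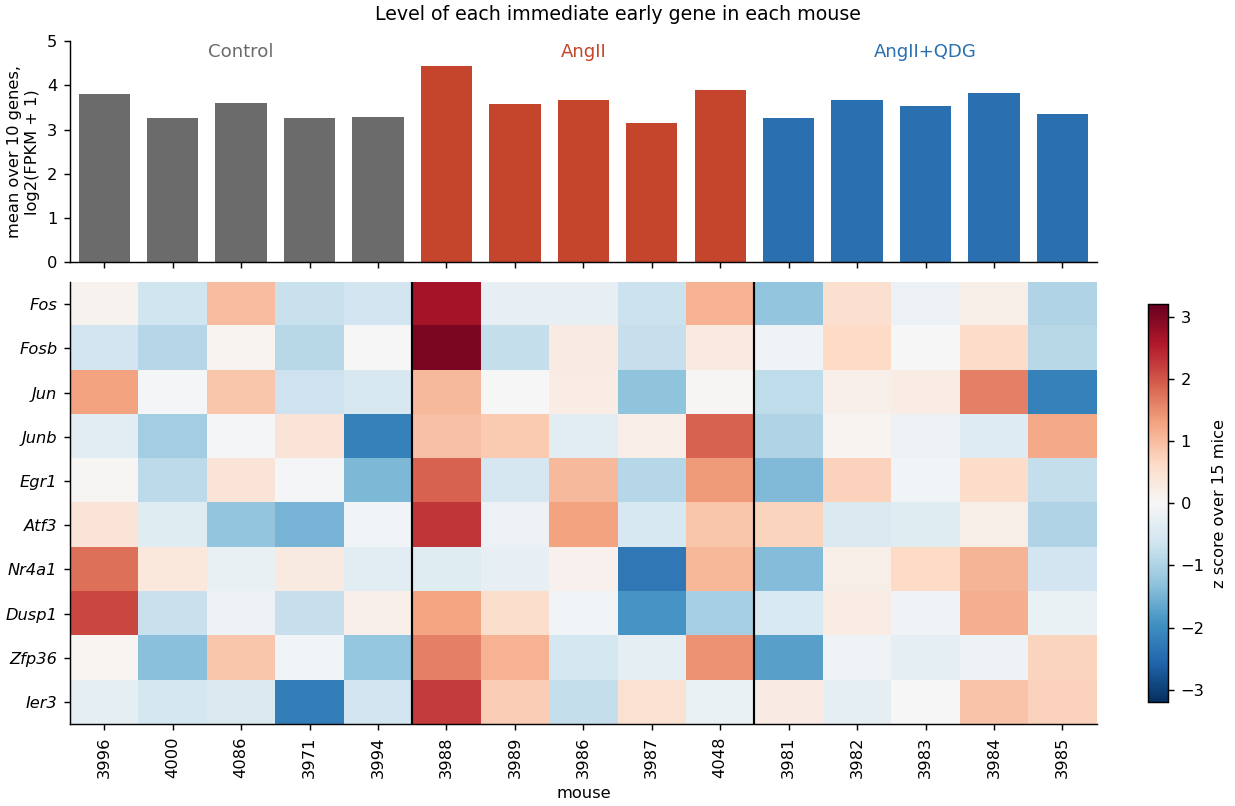
Upper panel, the mean of log2(FPKM + 1) over the 10 genes in each mouse, as bars from 0 coloured by group. Lower panel, the z score of each gene over the 15 mice, red above and blue below its mean. AngII mouse 3988 is red for all genes but Nr4a1, and Control mouse 3996 is darkest for Dusp1 and Nr4a1.

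Levels were also compared between genes across the 15 mice. Of 45 pairs, 42 had a positive Pearson r of log2(FPKM + 1), and the median r was 0.40, with a range from -0.24 to 0.85. Over all 71335540 pairs among 11945 transcripts that reached an FPKM of 1 in all mice, the median r was 0.03 and 53.3% were positive. In 9 of 45 pairs (14 unadjusted) the permutation p of r was below 0.05 after Benjamini-Hochberg adjustment over the 45 pairs, all with a positive r. Those 9 pairs are 20% of the 45, while 3.07% of all transcript pairs had an r at least as high as the lowest of them, 0.65. That cut-off was set by the 9 pairs themselves, so these shares are no test. The background was not run without AngII mouse 3988. The sets are unlike, since that background holds 9 of the 10 genes and not Fosb, which was in 3 of the 9 pairs. The 15 points share their libraries and their scaling within each gene pair, and genes are not independent of each other.

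The closest pair by permutation p was Fos and Egr1, both classical targets of ERK and SRF, with r = 0.85 (p = 1e-05, the smallest that 100000 permutations can give, adjusted p = 0.00045) and Spearman's rho = 0.82 (permutation p = 0.00039, adjusted p = 0.00585). Without mice 3988 and 4048, the farthest from the median of Fos, r was 0.74. Within the 10 Control and AngII mice, quantified on the same transcript list, r was 0.82 (permutation p = 0.00203, adjusted p = 0.0454). In each of these subsets r was thus at least 0.74, and the mice that were high for both, 3988, 4048, 3982, 3984 and 4086, came from all 3 groups.

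Junb and Zfp36 were as close, with r = 0.85 (permutation p = 0.00011, adjusted p = 0.00247) and rho = 0.84 (permutation p = 0.00018, adjusted p = 0.00585). Without mice 3994 and 4048, the ends of the Junb scale, r was 0.85, and within the 10 mice on the same list it was 0.86 (permutation p = 0.00072, adjusted p = 0.0324). This pair did not depend on mouse 3988, and r was 0.85 without it. With the other AP-1 transcripts, Junb had an r of 0.43 for Fos, 0.16 for Fosb and -0.10 for Jun.

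The other 7 pairs were Fos with Fosb (r = 0.83, adjusted permutation p = 0.0111), Fosb with Egr1 (0.71, 0.0111), Fos with Zfp36 (0.71, 0.0211), Fosb with Atf3 (0.71, 0.0328), Jun with Dusp1 (0.68, 0.0380), Jun with Nr4a1 (0.65, 0.0492) and Egr1 with Zfp36 (0.65, 0.0492). Raw permutation p-values ran from 0.00094 for Fos with Fosb to 0.00985 for Egr1 with Zfp36. By Spearman's rho, 7 of 45 pairs had an adjusted permutation p below 0.05, and 5 pairs passed by both measures, which were Fos with Egr1, Junb with Zfp36, Fos with Fosb, Fosb with Egr1, and Jun with Dusp1. Fos with Jun (rho = 0.81, adjusted permutation p = 0.00585) and Jun with Egr1 (rho = 0.71, adjusted permutation p = 0.0306) passed by rank only.

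The relations differed in how far they depended on single mice. When the 2 mice farthest from the median of the first gene were left out, r fell to 0.55 for Fos with Fosb, 0.56 for Fosb with Egr1, 0.50 for Fos with Zfp36, 0.43 for Fosb with Atf3 and 0.41 for Egr1 with Zfp36, all of which lost mouse 3988. For Jun with Dusp1 and Jun with Nr4a1 it was 0.79 and 0.66. Without mouse 3988 alone, 2 pairs kept an adjusted permutation p below 0.05, Fos with Egr1 and Junb with Zfp36, and the median r over 45 pairs was 0.22. Of the pairs that lost the call, r was then 0.71 for Jun with Nr4a1, 0.65 for Jun with Dusp1 and 0.63 for Fos with Zfp36, against 0.65, 0.68 and 0.71 over all 15 mice, and 0.43 for Fosb with Atf3, against 0.71. The count was 5 without Control mouse 3971 or without AngII+QDG mouse 3981. Over the 9 pairs and each mouse left out in turn, a call was lost 35 times, so calls were also lost without mice other than 3988. As single mice were left out, r ran from 0.58 to 0.71 for Jun with Nr4a1 and from 0.55 to 0.74 for Egr1 with Zfp36. Within the 10 Control and AngII mice, 42 of 45 pairs were positive with a median r of 0.45, and 7 pairs had an adjusted permutation p below 0.05, all of them among the 9. Correlations were not computed over the 5 AngII+QDG mice alone.

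After each value was centred on the mean of its group, 38 of 45 pairs were positive with a median r of 0.43, and without mouse 3988 it was 36 pairs with a median of 0.34. Fos with Egr1 and Junb with Zfp36 had centred r values of 0.84 each. These centred values were added after the data were seen and are given as a description, with no test.

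**Figure D4:**
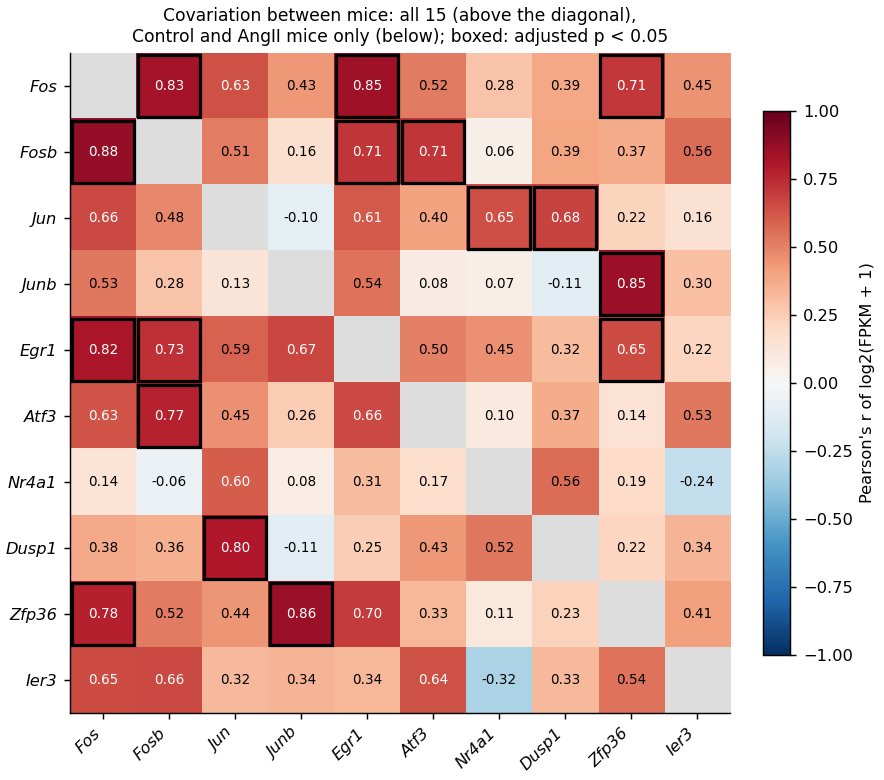
Pearson's r of log2(FPKM + 1) for each pair of genes over all 15 mice above the diagonal and over the 10 Control and AngII mice below it, with red for positive and blue for negative values. Boxes mark an adjusted permutation p below 0.05, 9 pairs above the diagonal and 7 below, and Nr4a1 with Ier3 has the lowest r above the diagonal, -0.24.

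By gene, Fos, Fosb, Egr1 and Zfp36 were each in 3 of the 9 pairs, Jun in 2, Junb, Atf3, Nr4a1 and Dusp1 in 1, and Ier3 in 0. Egr1 had the highest median r with the other 9 genes, 0.54, and Junb the lowest, 0.16. By the adjusted p of r, 7 of the 9 pairs lay among Fos, Fosb, Egr1, Zfp36, Junb and Atf3, where Junb was linked only with Zfp36 and Atf3 only with Fosb, and the other 2 were those of Jun with Dusp1 and Nr4a1. By the adjusted p of rho, Jun was linked with Fos and Egr1 as well, and its rho with Nr4a1 did not pass (0.62, adjusted permutation p = 0.0824). The 3 pairs with a negative r were Nr4a1 with Ier3 at -0.24, Junb with Dusp1 at -0.11 and Jun with Junb at -0.10, and none of them passed the adjustment.

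**Figure D5:**
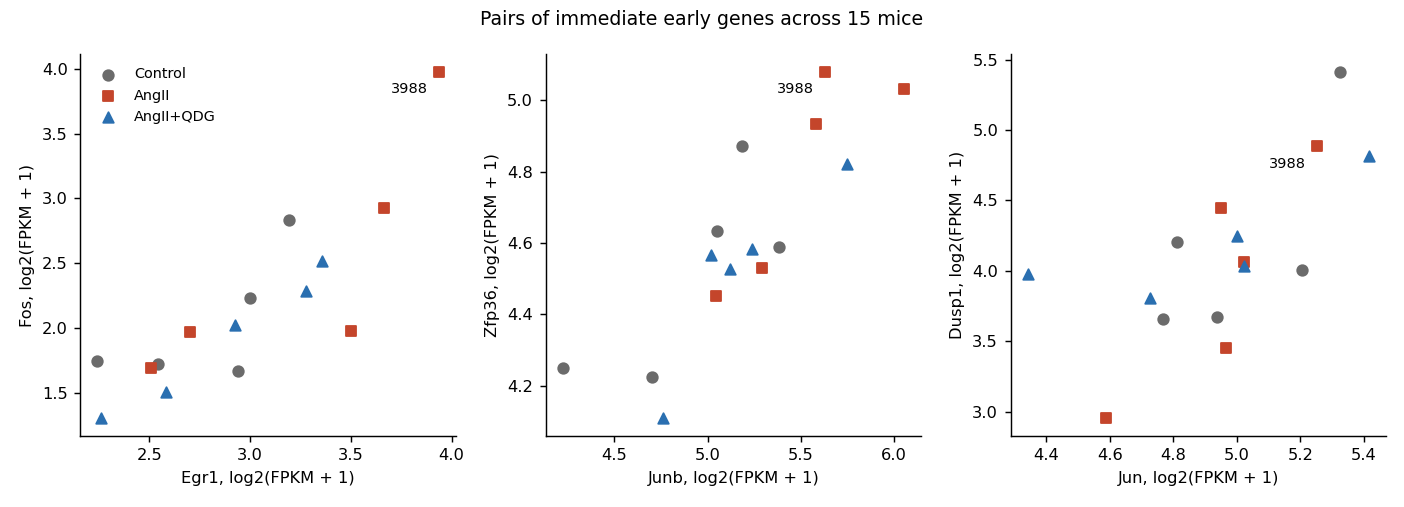
Levels of 3 pairs of genes in the 15 mice on the log2(FPKM + 1) scale, with Egr1 and Fos at left, Junb and Zfp36 in the middle and Jun and Dusp1 at right. Grey circles are Control, red squares AngII and blue triangles AngII+QDG mice, and the groups are mixed along each axis, with r = 0.85, 0.85 and 0.68.

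Among 11936 other transcripts that reached an FPKM of 1 in all mice, the profile most like the mean z score of the 10 genes was that of ENSMUST00000028663, with r = 0.87 over 15 mice and 0.83 without mouse 3988. The next was ENSMUST00000023610, with r = 0.81 and 0.67. Its mean FPKM was 26.3 in Control, 34.1 in AngII and 29.4 in AngII+QDG mice, and it was at 51.5 in mouse 3988 and at 40.0 or less in the others. The median r of all these transcripts with the 10 genes' mean was 0.07 and the 95th percentile 0.47, while the 10 genes themselves, which enter that mean, ranged from 0.46 for Nr4a1 to 0.90 for Fos. These values describe likeness between mice and carry no test.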

How the data were processed

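The sample labels gave each mouse its number and group. According to the study's methods and the labels, rRNA was removed from total RNA, and the methods then name a kit for isolating poly(A) mRNA. By the same sources, reads were filtered with NGSQC, aligned to mm10 with HISAT2 and assembled and quantified with StringTie. Differential expression was tested by the authors with a tool for read counts per the methods, while the labels' processing notes name limma. Tissue was stored in RNAlater per the methods and in liquid nitrogen per the labels. The values deposited by the authors are FPKM of transcripts, already divided by length and by mapped fragments, and no count test was run on them.

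Gene symbols come from the list that defines the genes. Gene positions are RefSeq gene spans of GRCm38.p6, matched by symbol, and that of Egr1 is not reported here. The genes, lists and tests were chosen with earlier results of these data known. All 10 genes are named, and the gene lists that were to be counted beside them could not be matched to transcripts.

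Per comparison, a limma-trend fit (limma 3.58.1, R 4.3.3) used the 10 mice concerned and the log2(FPKM + 1) of shared Ensembl transcripts that reached an FPKM of 1 in 5 or more mice, with p-values adjusted by Benjamini-Hochberg. The fit was tested on simulated data. Exact permutation tests of the difference in means and correlations, with 100000 permutations, used Python 3.11.15 and scipy 1.17.1. Relative depth was read from the peak of ratios between mice of transcripts below 0.1 FPKM. Absolute depth is unknown, so no counting interval is given, and precision rests on 5 mice per group. Alternatives were a pseudocount of 0.1, no filter or an FPKM of 1 reached in all mice, scaling by the 75th percentile, 3 groups in 1 fit, leaving out each mouse, and, added after the data were seen, reconstructed transcripts and values centred by group.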

Additional observations from a re-analysis of the deposited data

Results flagged for a closer look

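Within the groups of 5 mice, 30 sets of values (10 genes in 3 groups) were checked for a single mouse standing apart by Dixon's ratio of gap to range, with a critical value of 0.71. The ratio was taken on FPKM and not on log2(FPKM + 1), the scale of the other tests, on which a high value stands apart less. This was met by 4 sets. For normally distributed values chance gives about 1 in 20, or 1.5 of 30, and whether FPKM are so distributed was not tested. AngII mouse 3988 had a Fosb FPKM of 5.35, while the other 4 AngII mice were between 0.453 and 1.21. Control mouse 3996 stood apart for Nr4a1, with 24.6 against 11.7 to 14.97 in the others, and for Dusp1, with 41.7 against 11.6 to 17.5. Control mouse 3971 was low for Ier3, with 8.63 against 12.5 to 13.5. Fos in mouse 3988, at 14.8, did not meet the critical value, because AngII mouse 4048 was at 6.59.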

How the results depend on the processing

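No gene of the 10 reached an adjusted p of 0.05 in limma in any comparison under any alternative run. Members at an unadjusted p below 0.05 without 1 mouse numbered 0 to 3 in AngII vs Control, 0 to 1 in each comparison with AngII+QDG mice. The 3 groups in 1 fit gave 3 (Ier3 besides Junb and Atf3) in AngII vs Control and 0 in AngII+QDG vs Control, and scaling by the 75th percentile gave 2 (Junb and Zfp36) in AngII+QDG vs AngII, against 0 for AngII+QDG vs Control. That scaling also turned Zfp36 in AngII+QDG vs Control to -0.10 (adjusted p = 0.911), and moved the share of higher transcripts at an adjusted p below 0.05 from 59.2% to 47.2% in AngII+QDG vs AngII. The cause of these changes was not tested.

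Without 1 mouse, differences near 0 changed sign. In AngII vs Control, Dusp1 ran from -0.46 to 0.074 and Jun from -0.13 to 0.038. In AngII+QDG vs AngII, Dusp1 ran from -0.034 to 0.45, Ier3 from -0.16 to 0.074, Jun from -0.18 to 0.085 and Nr4a1 from -0.072 to 0.33. In AngII+QDG vs Control, Dusp1 ran from -0.17 to 0.29, Egr1 from -0.037 to 0.25, Fos from -0.26 to 0.083, Jun from -0.24 to 0.032 and Zfp36 from -0.067 to 0.11. The r of Jun with Junb ran from -0.23 to 0.13 and that of Junb with Dusp1 from -0.22 to 0.058. Pairs with an adjusted permutation p below 0.05 numbered 2 to 11 without 1 mouse, 10 with a pseudocount of 0.1 and 11 with scaling by the 75th percentile.

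Over all transcripts of AngII vs Control, 2 passed an adjusted p of 0.05, 1 with no filter, 1 with an FPKM of 1 required in all mice, 0 (988 at an unadjusted p below 0.05) with 3 groups in 1 fit, and 0 to 6 without 1 mouse. At a fold change of 2 with an unadjusted p below 0.05 there were 244, and 422 with a pseudocount of 0.1, 70 with an FPKM of 1 required in all mice and 409 with reconstructed transcripts (209 to 303 without 1 mouse). Requiring an FPKM of 1 in all mice, which tests fewer transcripts, gave 87 adjusted and 209 by fold change in AngII+QDG vs AngII instead of 365 and 744, and 106 and 235 in AngII+QDG vs Control instead of 384 and 774. Without 1 mouse these were 215 to 281 and 660 to 726, and 200 to 288 and 687 to 745. No paired analysis was possible because no mouse occurs in more than 1 group. Depth is unknown, which limits statements on Fosb, the least abundant of the 10 transcripts.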
